A study of Macaca mulatta with 64 samples.

Results

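Start positions of 5 postsynaptic signalling genes were followed by CAGE-seq across the brain of rhesus macaques. The genes were NRGN, CAMK2A, CAMKV, PRKCB and GRIA1, 5 of the 13269 genes in the table. They were taken by name, and all rows listed for them were used, 391 of 160389 start positions. CAGE-seq reads the 5′ ends of RNA molecules, and each value gives the tags of a start, or of a cluster of neighbouring starts, under 1 position of the genome. Values are TPM, tags scaled to a fixed library total. They do not take the length of a gene into account, so levels are not compared between genes. All positions of a gene were added up to give its TPM.

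The 64 libraries came from cerebellar cortex (CB), from the CA1 and dentate gyrus (DG) of the hippocampus, and from 5 neocortical regions. These were temporal cortex, parietal cortex (PC), occipital cortex (OC), prefrontal cortex (PFC) and the posterior part of the cingulate cortex (PCC). The animals were healthy and socially housed, of both sexes, and aged 1, 4, 10 or 20 yr. With 1 library for each age and sex, every region had 8 libraries, and the 8 combinations of age and sex are called animal groups. The labels state 16 animals, 2 for each age and sex, so a library may hold RNA of a pair of animals, and the spread given here is that between animal groups.

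Neurogranin, the product of NRGN, holds calmodulin at dendritic spines of forebrain neurons and releases it when calcium rises or when protein kinase C phosphorylates it. Free calcium-calmodulin activates CaMKII, whose alpha subunit is the product of CAMK2A. CaMKII and protein kinase C phosphorylate GluA1, the AMPA receptor subunit encoded by GRIA1, a step known from the strengthening of hippocampal synapses in rodents. PRKCB encodes the beta isoform of protein kinase C, and CAMKV encodes a CaM kinase-like pseudokinase of dendritic spines.

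The regions differed in how many genes a library listed, from 545 in a CB library to 8143 in a CA1 library. CA1 libraries listed 3805 to 8143 genes, DG libraries 1238 to 3898, CB libraries 545 to 3615 and PCC libraries 617 to 2158. The smallest value listed above 0 was 1 TPM and stood for 3 to 7 tags, so a value of 0 says only that a gene is not listed. All 5 genes were listed in 18 libraries, among them all 8 of CA1, and none in 1 library, from CB. Log2(TPM + 1) of every one of the 5 genes correlated positively with the log2 number of genes listed, with Pearson's r over the 64 libraries of 0.34 for NRGN, 0.38 for CAMK2A, 0.50 for CAMKV, 0.27 for PRKCB and 0.59 for GRIA1. These are descriptions across libraries of different regions.

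**Figure D1:**
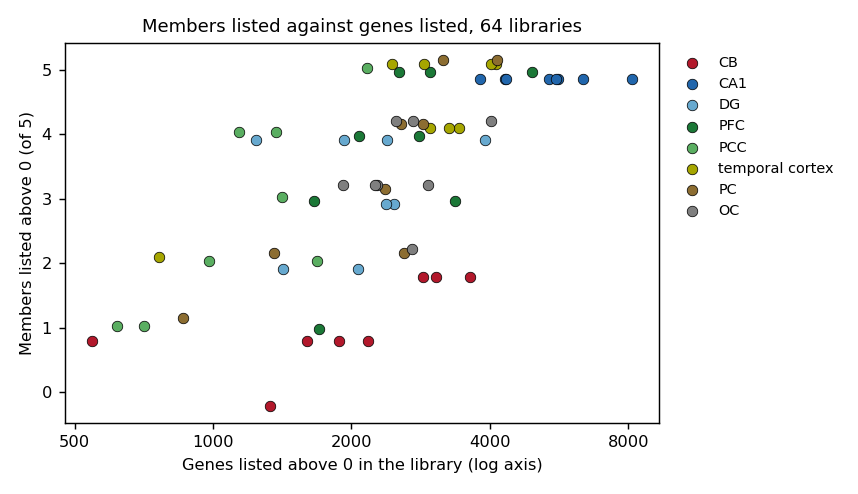
Number of the 5 genes listed above 0 (y axis) against the number of all genes listed in the same library (x axis, log scale), 1 point for each of the 64 libraries, coloured by region and shifted slightly up or down to part the regions. All 8 CA1 libraries held all 5 genes, and no CB library held more than 2.

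The labelled regions were checked against marker genes. Of the cerebellar markers, CBLN1, CBLN3 and CALB1 were listed in 8 of 8 CB libraries, GABRA6 and ZIC1 in 3 of 8 and ZIC2 in 1 of 8. Of the glutamatergic markers, NEUROD2 was listed in 5 of 8 CB libraries and SLC17A7 in 2 of 8, while NEUROD6 and TBR1 were listed in none. NEUROD6 was also listed at 0 in all 8 OC libraries. PROX1, which defines dentate granule cells, was listed at 0 in all 8 DG libraries, and C1QL2, the other dentate marker, was listed in 6 of 8. Of the CA1 markers, WFS1 was listed in 4 of 8 CA1 libraries and FIBCD1 in 3 of 8. The 4 listed of 6 glutamatergic markers summed to 177 to 697 TPM in CA1, 0 to 304 TPM in DG and 0 to 120 TPM in CB. They summed to 0 to 31.5 TPM in OC and to 0 to 422 TPM in the other neocortical regions. The median sum was 0 TPM in OC and 19.1 TPM in CB, so these markers did not part CB from OC. The 6 listed of 7 oligodendrocyte and myelin markers summed to 4987 to 8193 TPM in CA1 libraries and to 736 to 4047 TPM in DG libraries. The part of cell composition in the results was not tested.

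NRGN lies on the plus strand of chromosome 14, from 122891807 to 122898953 in MMUL 1.0, the build of the files. It had 129 positions, more than 99.4% of the tested genes had. All 56 libraries outside CB listed it, and the 8 CB libraries listed it at 0. One group of neighbouring positions, from 278 to 105 nt upstream of the annotated start, was listed in all 56 of these libraries and held 37.1% of the TPM of NRGN. Its main position, 122891690, lay 117 nt upstream and was listed in 24 libraries. A further 38.4% of NRGN TPM began in the final 10% of the gene, and the largest group there, 6642 to 6751 nt inside, was listed in 31 libraries. Over all genes, 53.7% of TPM lay within 500 nt of an annotated start and 12.1% in the final 10% of a gene. Whether a position lies in an exon, an intron or a UTR was not looked up, since only gene starts and ends come with the values.

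CAMK2A lies on the minus strand of chromosome 6, from 146707953 to 146768706. Its 31 positions were spread over 28 libraries, and 72.3% of its TPM began within 500 nt of the start. The main group, 130 to 150 nt upstream, was listed in 15 libraries and held 68.1%. A second group, 47457 to 47469 nt inside the gene, was listed in 11 libraries and held 11.4%.

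CAMKV lies on the plus strand of chromosome 2, from 86544829 to 86549260. Only 0.403% of its TPM began within 500 nt of the annotated start, in 3 libraries. Position 86547483, 2654 nt inside the gene of 4432 nt, held 71.0% of its TPM and was listed in 32 libraries. A second position, 854 nt inside, was listed in 30 libraries and held 9.99%. Of the tested genes, 22.3% had a smaller share near the start.

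PRKCB lies on the plus strand of chromosome 20, from 22314529 to 22687672, and had 134 positions. The final 10% of the gene held 69.8% of its TPM, in 44 libraries, and the 500 nt around the start held 8.20%, in 20 libraries. The main group lay 372518 to 372540 nt inside the gene, 603 nt or more before its end, and was listed in 28 libraries with 27.3% of the TPM. The position 144 nt inside the gene was listed in 4 of 8 CB libraries, and the neighbouring position 139 nt inside in 1 temporal cortex library. A position 193768 nt inside, listed in no other library, held all 2920 TPM of PRKCB in the CB library of 10-yr-old females, the library that listed 545 genes.

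GRIA1 lies on the plus strand of chromosome 6, from 149839874 to 150164696. Of its TPM, 82.8% began within 500 nt of the start, in 30 of the 34 libraries that listed the gene. The main group of positions, 267 to 345 nt upstream, held 64.1% and was listed in all 8 CA1 libraries, in 3 of 8 DG libraries and in 1 of 8 CB libraries. The next group, 419 to 461 nt upstream, was listed in 13 libraries.

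Most positions of these genes came from 1 library. This held for 282 of the 391 positions, 72.1%, against 74.3% of all positions in the table. No other gene of the table overlapped any of the 5.

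**Figure D2:**
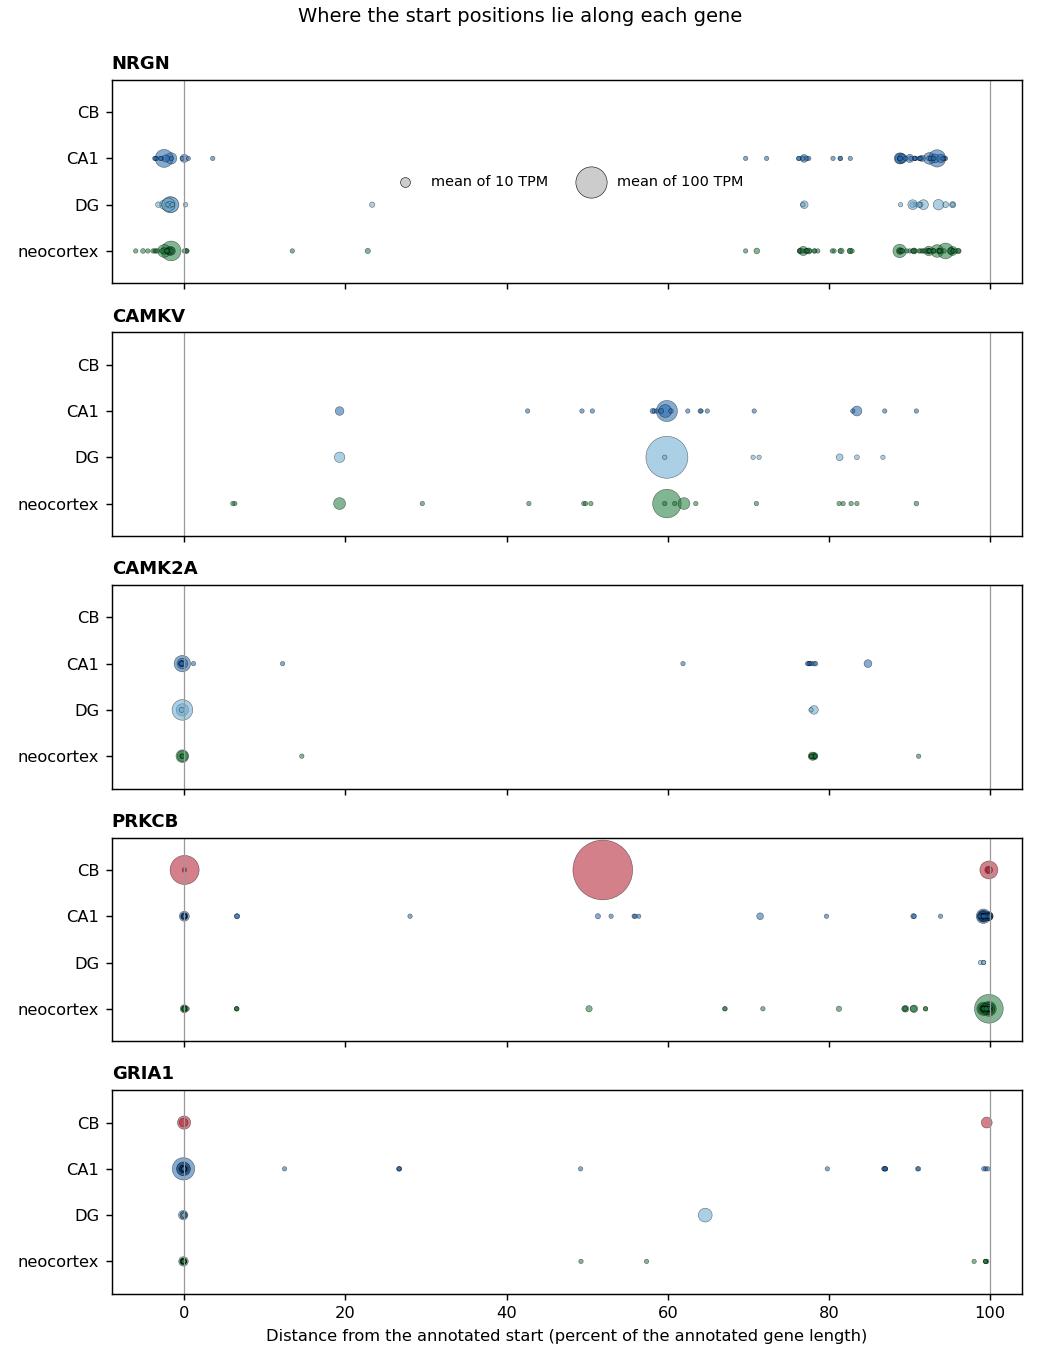
Start positions along each gene, by region. The x axis gives the distance from the annotated start as a percent of the annotated gene length, with grey lines at the start and end, and the area of a circle gives the mean TPM of the position over the libraries of CB, CA1, DG or the neocortex (smallest size for the lowest values). NRGN and PRKCB had starts near both ends, CAMKV had most of its TPM inside the gene, and CAMK2A and GRIA1 had most of it at the start. NRGN, CAMKV and CAMK2A had no listed position in CB.

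In CB, 3 of the 5 genes were listed at 0 in all 8 libraries. These were NRGN, CAMKV and CAMK2A. NRGN had 7.89 to 749 TPM in the other 56 libraries, with a median of 174 TPM. CAMKV was listed in 46 of these 56 libraries, with a lowest value of 0, a median of 79.4 and a highest value of 570 TPM. CAMK2A was listed in 28 of the 56, with a lowest value of 0, a median of 0.6 and a highest value of 563 TPM. So the NRGN values of CB and the other regions did not overlap, whereas those of CAMKV and CAMK2A met at 0.

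Levels were compared on log2(TPM + 1) with limma, with region and animal group in the model and Benjamini-Hochberg adjustment over 6106 genes. Differences on this scale understate those of low genes, and against a group at 0 they are no fold change. NRGN was lower in CB by this test, with a difference of -7.34 ± 0.51 (SE) and an adjusted p of 3.1e-17, and it was lower in 8 of 8 animal groups. CAMKV was lower as well, with a difference of -5.30 ± 1.02 and an adjusted p of 0.00058, also in 8 of 8 animal groups. The difference of CAMK2A was -2.62 ± 0.95 with an adjusted p of 0.158, so it did not pass the test although no CB library listed the gene. In bulk tissue, fewer cells of a type and less RNA per cell cannot be told apart.

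PRKCB and GRIA1 were listed in CB. PRKCB had a lowest value of 0, a median of 144 and a highest value of 2920 TPM in the 8 CB libraries, against 0, 154 and 1775 TPM in the 56 others. GRIA1 was listed in 3 of 8 CB libraries, with 59.5, 97.1 and 144 TPM, against 31 of 56 other libraries, where its highest value was 370 TPM. Neither gene differed beyond the spread in its summed TPM. The difference was 0.53 for PRKCB, with a 95% interval from -1.72 to 2.78 and an adjusted p of 0.844 by limma, and -0.74 for GRIA1, with an interval from -2.82 to 1.35 and an adjusted p of 0.742. The sign for PRKCB rested on the 10-yr-old females, without which it was -0.39. The sums of PRKCB held unlike positions. Within 500 nt of the start its mean was 86.4 ± 131 TPM in CB and 13.1 ± 48.8 TPM in the neocortex (SD). In the final 10% of the gene it was 41.4 ± 91.6 TPM in CB and 260 ± 343 TPM in the neocortex.

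Of the 5 genes, 2 were called in the comparison of CB with the other regions, both lower in CB. Of all tested genes, 2.23% were called, and 1.34% were called lower in CB. The median difference over all tested genes was -0.43. Being listed at 0 in 8 of 8 CB libraries was shared by 21.3% of the tested genes. Of the 76 tested genes listed in all 56 libraries outside CB, NRGN was the 1 gene at 0 throughout CB.

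**Figure D3:**
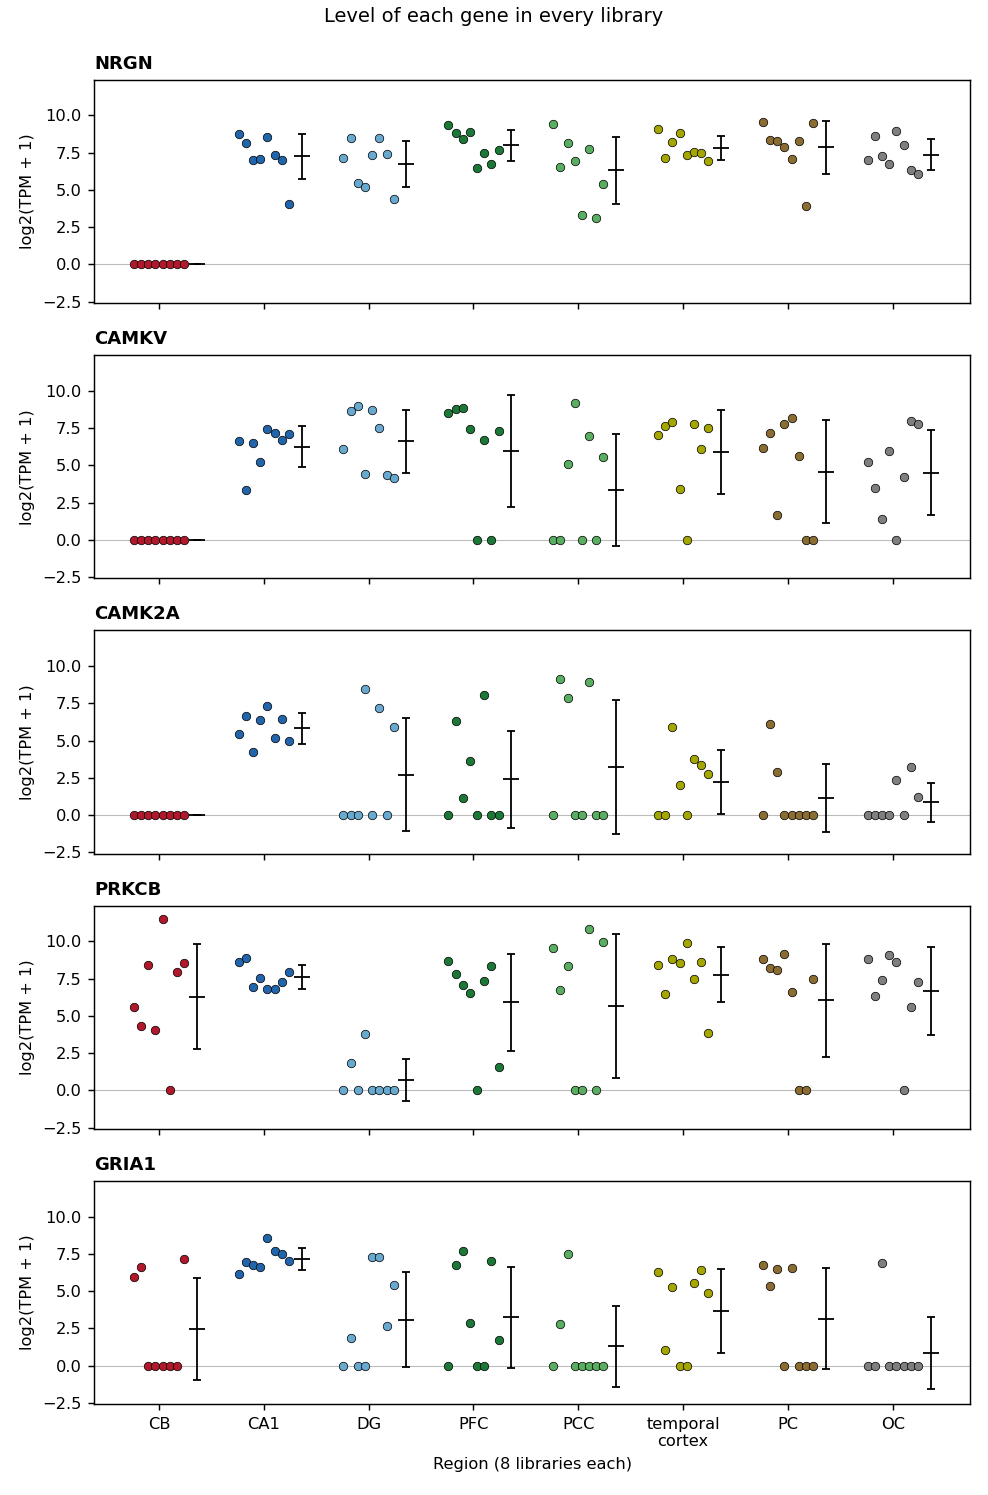
Level of each gene in every library. The y axis is log2(TPM + 1), each point is a library, and the bar beside the points of a region gives their mean and SD (n = 8 each); part of an SD bar can lie below 0 because many libraries are at 0. NRGN, CAMKV and CAMK2A were at 0 in every CB library, and PRKCB was at 0 in 6 of 8 DG libraries.

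Within the hippocampus, PRKCB parted CA1 from DG. It was listed in 8 of 8 CA1 libraries, with 108 to 469 TPM and a median of 170 TPM. Of the 8 DG libraries, 6 listed it at 0, and the others had 2.54 and 12.99 TPM, from 7 and 39 tags. The ranges did not overlap, and the share of all tested genes with ranges apart in CA1 and DG was not counted. By limma the difference on log2(TPM + 1) was 6.90 ± 1.49 with an adjusted p of 0.0009, and PRKCB was higher in CA1 in 8 of 8 animal groups. With the log2 number of genes listed as a covariate the difference was 5.60 and the adjusted p was 0.0697, so the call was lost.

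GRIA1 was listed in 8 of 8 CA1 libraries, with 68.6 to 370 TPM and a median of 125 TPM. In DG it was listed in 5 of 8, with a lowest value of 0, a median of 3.89 and a highest value of 157 TPM. So the ranges overlapped, and the highest DG values came from the 10-yr-old females and males. The difference was 4.08 ± 1.38 with an adjusted p of 0.0311 by limma, in 8 of 8 animal groups. This call was lost with the number of genes as a covariate, where the difference was 0.66 with an adjusted p of 0.873. It was also lost without any one of 5 animal groups, the 1-yr-old females (adjusted p of 0.0735) or males (0.0643), the 4-yr-old females (0.0579) or males (0.0986), or the 20-yr-old females (0.0661).

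CAMK2A was listed in 8 of 8 CA1 libraries, with a lowest value of 17.5, a median of 62.8 and a highest value of 156 TPM, and in 3 of 8 DG libraries, with 60.3, 146 and 349 TPM. The DG libraries that listed CAMK2A were all from males. Its difference was 3.12 ± 1.25 with an adjusted p of 0.0679 by limma. It passed the test without the males of 4 yr (adjusted p of 0.0455) or of 10 yr (0.028), with a pseudocount of 0.25 TPM (0.0425) and from positions within 500 nt of the start (0.0409). In the other 13 of 17 alternatives CAMK2A did not pass. Over all 17 the difference ran from 1.53 to 4.35, and the adjusted p reached 0.663. CAMKV was listed in all 16 hippocampal libraries, with medians of 99.9 TPM in CA1 and 125 TPM in DG, and a difference of -0.35 with a 95% interval from -3.05 to 2.36. For NRGN the medians were 149 TPM in CA1 and 152 TPM in DG, and the difference of 0.50 had an interval from -0.84 to 1.85.

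Of the 5 genes, 2 were thus called between CA1 and DG, both higher in CA1. The background of this comparison is high, since 19.4% of tested genes were called, 18.5% were called higher in CA1 and the median difference over all tested genes was 1.37. The covariate cannot tell how much of the differences of PRKCB and GRIA1 goes with the larger number of genes that CA1 libraries list. CA1 libraries listed 3805 to 8143 genes and DG libraries 1238 to 3898, so that number goes largely with the region. Quantile normalization moved the median over all genes to 0.12, and neither call was lost with it.

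The hippocampus was then compared with the neocortex. GRIA1 was listed in 13 of 16 hippocampal libraries, with a mean of 102 TPM and a highest value of 370 TPM, against 18 of 40 neocortical libraries, with a mean of 33.7 TPM and a highest value of 203 TPM. CAMK2A was listed in 11 of 16 hippocampal libraries, with a median of 39.3 and a highest value of 349 TPM, against 17 of 40 neocortical libraries, with a median of 0 and a highest value of 563 TPM. For both genes the ranges overlapped from 0 upward, and more of the hippocampal libraries were above 0.

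Both were higher in the hippocampus by limma. GRIA1 had a difference of 2.66 ± 0.81 and an adjusted p of 0.0315, and was higher in 7 of 8 animal groups. CAMK2A had a difference of 2.30 ± 0.74 and an adjusted p of 0.0417, and was higher in 6 of 8. Of all tested genes, 8.19% were called in this comparison, 7.98% were called higher in the hippocampus, and the median difference was 0.55. Both calls came with CA1. With CA1 alone set against the neocortex, where 27.5% of tested genes were called and the median difference was 1.23, the difference was 4.70 for GRIA1 with an adjusted p of 0.00084 and 3.86 for CAMK2A with an adjusted p of 0.00242. With DG alone, where 0.442% were called and the median was -0.19, the differences were 0.62 and 0.73, with adjusted p-values of 0.898 and 0.889. With the number of genes as a covariate both calls were lost, with adjusted p-values of 0.613 for GRIA1 and 0.405 for CAMK2A. Both were also lost without the 6 libraries that list fewer than 1000 genes, with adjusted p-values of 0.0924 and 0.146. Leaving out the males of 4 yr or the females or males of 10 or 20 yr, 1 animal group at a time, gave GRIA1 an adjusted p of 0.0687 to 0.142, and the same 5 or the 1-yr-old females gave CAMK2A 0.0551 to 0.198. Without the animal group in the model (no replicate block), CAMK2A had an adjusted p of 0.0507. Without the PFC library of the females of 20 yr it was 0.0514.

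PRKCB went the other way, with a median of 60.6 TPM in the hippocampus and 178 TPM in the neocortex. The difference was -2.25 ± 0.88 with an adjusted p of 0.103 by limma, lower in 8 of 8 animal groups. Split by subregion, it was -5.70 for DG against the neocortex, with an adjusted p of 0.00897, and 1.20 for CA1 against the neocortex, with an adjusted p of 0.447. Without the 6 libraries that list fewer than 1000 genes, the difference of the whole hippocampus was -3.06 with an adjusted p of 0.00432. CAMKV had medians of 99.9 TPM in the hippocampus and 63.8 TPM in the neocortex, with a difference of 1.58 and a 95% interval from -0.02 to 3.18. NRGN had medians of 152 and 197 TPM in the hippocampus and the neocortex, with a difference of -0.48 and an interval from -1.28 to 0.32.

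**Figure D4:**
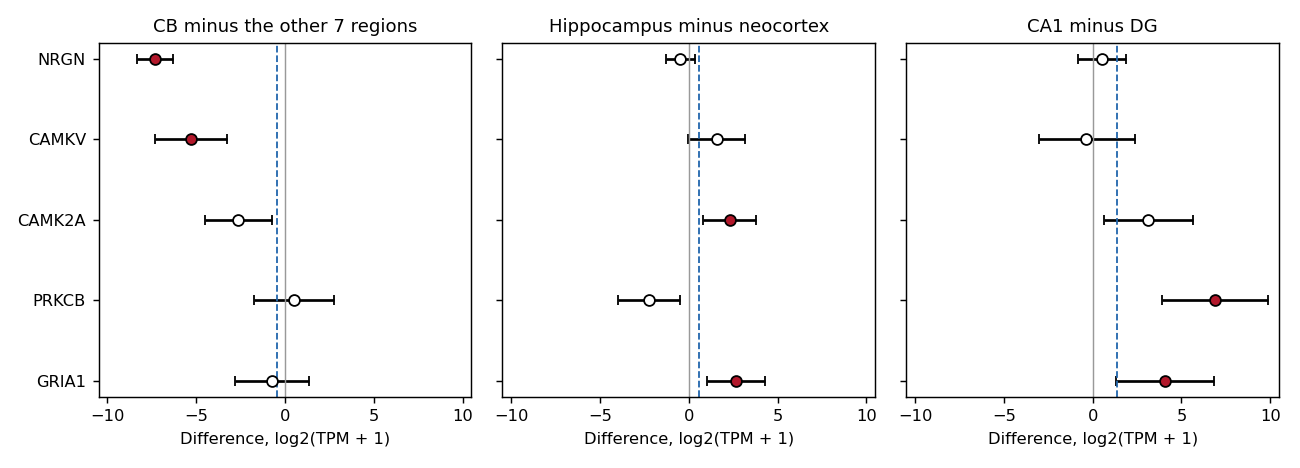
Differences of the 5 genes in 3 comparisons of regions, on the log2(TPM + 1) scale (x axis), with 95% intervals from limma. Filled points passed an adjusted p of 0.05, and the dashed line is the median difference of all 6106 tested genes. NRGN and CAMKV stood lowest in CB, and PRKCB and GRIA1 were higher in CA1 than in DG.

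The order of the 8 regions by mean log2(TPM + 1) differed from gene to gene. NRGN ran from PFC, with 7.99 ± 1.06 (SD, n = 8), through PC, temporal cortex, OC, CA1 and DG to PCC, with 6.34 ± 2.25, and then CB at 0. The step from PCC to CB was the 1 step between neighbours that exceeded the larger SD of the pair. CAMKV had its highest mean in DG, at 6.6 ± 2.1, followed by CA1, PFC, temporal cortex, PC, OC, PCC and CB. CAMK2A had its highest mean in CA1, 5.82 ± 1.03, followed by PCC, DG, PFC, temporal cortex, PC, OC and CB. In neither gene did a step between neighbours exceed the larger SD.

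PRKCB had its highest mean in temporal cortex, 7.76 ± 1.86, followed by CA1, OC, CB, PC, PFC, PCC and DG. The last step, to DG at 0.70 ± 1.41, exceeded the larger SD of the pair. GRIA1 had its highest mean in CA1, 7.14 ± 0.75, and the step to temporal cortex, at 3.68 ± 2.83, was the 1 step above the larger SD. PFC, PC, DG, CB, PCC and OC came after these, and OC listed GRIA1 in 1 of 8 libraries.

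Among the 5 neocortical regions none of the 5 genes was called, where 4.63% of all tested genes were. The adjusted p by limma ranged from 0.379 for NRGN to 0.839 for PRKCB, and no unadjusted p was below 0.103. Single libraries weighed heavily in these regions. Of all TPM of CAMK2A, 47.8% came from 3 libraries, and the PCC library of 1-yr-old males held 563 TPM. PRKCB reached 1775 TPM in the PCC library of 10-yr-old males and was listed at 0 in 3 of 8 PCC libraries.

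The use of positions within a gene was tested with diffSplice of limma on positions of at least 1 TPM in at least 8 libraries. GRIA1 had fewer than 2 such positions and was not tested. None of the other 4 genes was called, where 0.87% of 1265 genes were called for CB against the other regions and 3.72% for the hippocampus against the neocortex. For CB the test holds no information on NRGN, CAMKV and CAMK2A, which were listed at 0 there. The unadjusted p of all 4 genes was above 0.05. For PRKCB the test compared only 2 positions, 372439 and 372519 nt inside the gene, both near its end. It held no PRKCB position near the start, so it could not tell whether CB differed in the use of starts there. In the hippocampus NRGN had an unadjusted p of 0.0161 and an adjusted p of 0.157 over 9 positions. With positions less than 20 nt apart joined, NRGN and PRKCB were called in the hippocampus, with adjusted p-values of 0.0235 and 0.00228, where 5.46% of 1539 genes were called. NRGN was also called in CB, with an adjusted p of 3e-05, where 2.08% were called. Since no CB library listed NRGN, that call does not describe which starts were used there. In the hippocampus the NRGN group 6795 nt inside the gene was lower by 2.05 relative to the other groups of the gene. It was listed in 0 of 8 CA1 libraries and 4 of 8 DG libraries, against 25 of 40 neocortical libraries. The PRKCB group 372518 nt inside was lower by 3.11 relative to the others and was listed in 6 of 8 CA1 and 0 of 8 DG libraries. In the neocortex it was listed in 6 PFC, 2 PCC, 5 temporal cortex, 3 PC and 5 OC libraries, of 8 each. PRKCB as a whole was at 0 in 6 of 8 DG libraries. The PRKCB call therefore cannot tell a change of starts from the low level of the gene in DG.

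Age was compared on the means of each animal group over the 8 regions. NRGN averaged 7.28, 6.52, 6.50 and 5.38 on log2(TPM + 1) at 1, 4, 10 and 20 yr (n = 2 animal groups each). PRKCB averaged 6.82, 6.48, 4.73 and 5.26 at these ages. The values of the 10- and 20-yr-old animal groups ran from 4.05 to 5.82 for PRKCB, against 6.09 to 7.32 for those of 1 and 4 yr, and did not overlap. For NRGN they ran from 5.26 to 6.87, against 6.45 to 7.54, and overlapped. The share of all tested genes whose older and younger animal groups did not overlap was not counted. In TPM, PRKCB pointed the other way, with 305 ± 177 TPM at 10 and 20 yr and 241 ± 82.7 TPM at 1 and 4 yr (SD, n = 4 animal groups each), where the older groups hold the CB library with 2920 TPM.

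None of the 5 genes was called. PRKCB had a difference of -1.65 ± 0.49 with an unadjusted p of 0.00567 and an adjusted p of 0.286 by limma. NRGN had -0.96 ± 0.49 with an adjusted p of 0.559, CAMKV -0.87 ± 0.51 with 0.603, GRIA1 -0.42 ± 0.67 with 0.881, and CAMK2A -0.17 ± 0.61 with 0.957. No gene of the table was called, so the background is 0%, while 585 of 6106 genes had an unadjusted p below 0.05, and the median difference over all tested genes was -0.30. In the test over the 4 ages none of the 5 genes was called either, with a background of 0% and 373 genes at an unadjusted p below 0.05. At 10 and 20 yr PRKCB was listed in 21 of 32 libraries, against 29 of 32 at 1 and 4 yr. Of the 6 libraries that list fewer than 1000 genes, those of CB and temporal cortex came from 10-yr-old females. That of PC came from 20-yr-old females, and those of PCC from 10- and 20-yr-old females and 4-yr-old males. PRKCB was at 0 in these PC and PCC libraries. Without the 6 libraries, the median difference over all tested genes was -0.15. How far the count of PRKCB goes with the number of genes listed was not tested.

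**Figure D5:**
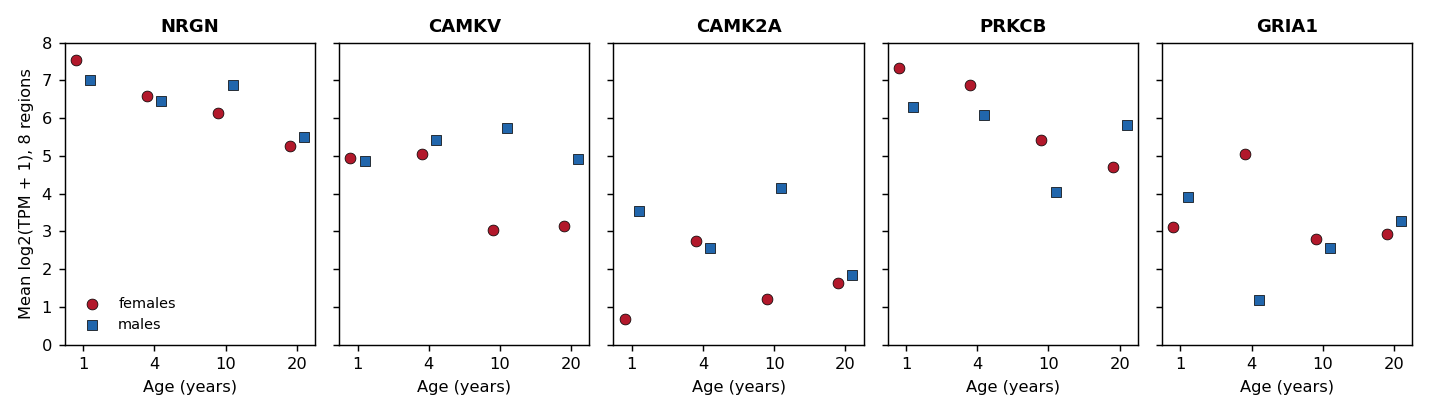
Mean log2(TPM + 1) of each gene over the 8 regions (y axis) at 1, 4, 10 and 20 yr (x axis), 1 point for each of the 8 animal groups, females as circles and males as squares. On this log scale PRKCB was lower in all 4 animal groups of 10 and 20 yr, and no age difference passed the adjusted test.

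Within single regions the 10- and 20-yr-old libraries were compared with those of 1 and 4 yr, 4 against 4. None of the 5 genes was called in any region, and the median difference over all tested genes was 0.51 in DG, -0.98 in PC and -0.87 in PFC. In PCC 3 of 3664 genes were called, 0.0819%, and in the other 7 regions 0%, with 226 to 460 genes at an unadjusted p below 0.05. GRIA1 in DG had 157, 154, 5.26 and 42.0 TPM at 10 and 20 yr, against 2.53 TPM in 1 library and 0 in 3 at 1 and 4 yr. The groups did not overlap, and the difference was 5.21 ± 1.29 with an unadjusted p of 0.00325 and an adjusted p of 0.672 by limma. In PC, PRKCB averaged 68.1 ± 85.6 TPM at 10 and 20 yr and 393 ± 138 TPM at 1 and 4 yr (SD, n = 4 each), with a limma difference of -5.04 ± 1.92 and an adjusted p of 0.569. In PFC, CAMKV averaged 63.6 ± 76.6 TPM at 10 and 20 yr and 359 ± 132 TPM at 1 and 4 yr (SD, n = 4 each), with a limma difference of -4.91 ± 1.56 and an adjusted p of 0.487. The ages were also apart in both of these cases and for CAMKV in CA1. The same held for NRGN in PFC, with 145 ± 57.7 TPM at 10 and 20 yr against 481 ± 129 TPM. It held for GRIA1 in CA1, with 220 ± 105 against 97.9 ± 22.6 TPM. How many of all tested genes had ages apart within a region was not counted.

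Females and males did not differ in any of the 5 genes by limma, where the background is again 0%, with 321 genes at an unadjusted p below 0.05. CAMK2A was listed in 11 of 32 libraries of females and 17 of 32 of males, and its difference was -1.45 with a 95% interval from -2.88 to -0.03 and an adjusted p of 0.931. CAMKV was listed in 20 of 32 libraries of females and 26 of 32 of males, with a difference of -1.21 and an interval from -2.45 to 0.04. Over all tested genes the median difference was -0.19, and -0.04 without the 6 libraries that list fewer than 1000 genes. Of these 6, only the PCC library of 4-yr-old males came from males, and those from females listed CAMK2A and CAMKV at 0. How far the counts by sex go with the number of genes listed was not tested. For NRGN, PRKCB and GRIA1 the intervals held 0 well inside.

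Genes of the same pathways were read from lists chosen for this purpose. These lists also hold CAMK2A, CAMKV, PRKCB and GRIA1, so their counts and medians reuse the results given above for these genes. Of 15 calmodulin-dependent kinases and inhibitors, 10 were tested, and 2 of these were lower in CB, against 1.34% of all tested genes, with a median of -1.35 against -0.43 over all genes. They were CAMKV and CAMK1, the gene of another calmodulin-dependent kinase, which had 37.7 TPM in CB on average and 187 TPM elsewhere, and a difference of -3.44 ± 0.89 with an adjusted p of 0.0205 by limma. CAMK4, a kinase of neuronal nuclei, had 1.56 ± 0.58 with an adjusted p of 0.182. In the hippocampus CAMK2A was the 1 called gene of this list, higher there like 7.98% of all tested genes.

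Of 10 AMPA receptor and auxiliary subunit genes, 6 were tested, with a median of -1.73 in CB and of 1.73 in the hippocampus, against -0.43 and 0.55 over all genes. Of the 6, 1 was called lower in CB, against 1.34% of all tested genes, and 2 were called higher in the hippocampus, against 7.98%. The gene called lower in CB was CACNG3, which encodes a receptor-associated protein. It was listed at 0 in 8 of 8 CB libraries and had 101 TPM elsewhere on average, with an adjusted p of 0.00587 by limma. GRIA2 and GRIA3, the genes of other receptor subunits, had differences of -3.20 ± 1.08 and -2.67 ± 0.87 with adjusted p-values of 0.115 and 0.0986. In the hippocampus CNIH2, a cornichon gene, was called beside GRIA1, with 16.1 TPM there and 1.09 TPM in the neocortex on average, a difference of 1.83 ± 0.40 and an adjusted p of 0.00215.

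Of 9 protein kinase C genes, 4 were tested and none was called in CB. Of 15 scaffold genes, 13 were tested. The 1 called in CB, where 2.23% of all tested genes were called, was HOMER3. This gene, known from Purkinje cells, was higher in CB and had 211 TPM there on average, against 12.5 TPM elsewhere, a difference of 5.17 ± 0.82 and an adjusted p of 1.9e-05 by limma. HOMER3 was also the 1 called in the hippocampus, higher there with an adjusted p of 0.0309. DLG2, the gene of PSD-93, was listed at 0 in 8 of 8 CB libraries and had -3.31 ± 1.06 with an adjusted p of 0.0916.

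Of 13 calcineurin and protein phosphatase 1 genes, 8 were tested and none was called in CB or in the hippocampus. PPP1CA, a catalytic subunit, had 2.98 ± 0.96 in CB with an adjusted p of 0.0907 by limma, and RCAN1, a calcineurin inhibitor, had 2.75 ± 1.10 with 0.236. Of 7 calmodulin genes and small regulators, 2 were tested, and 1 was called in the hippocampus, where 8.19% of all tested genes were. GAP43, the calmodulin-binding protein of axons, was lower in the hippocampus, with 3429 TPM there and 7181 TPM in the neocortex on average and an adjusted p of 0.0282. CALM3, a calmodulin gene, had 2.10 ± 0.73 with 0.0585. The 2 tested of 6 protein kinase A genes and the 2 tested of 7 NMDA receptor genes were called in neither comparison.

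The genes whose levels were most like each of the 5 over the 64 libraries were named as a description. NRGN was most like SST, HPCA and CHGA, with Pearson's r of 0.68, 0.67 and 0.66 on log2(TPM + 1). CAMKV was most like YAF2 (r = 0.64), PRKCB most like SPARCL1 (r = 0.49), GRIA1 most like GPRASP2 (r = 0.66) and CAMK2A most like TAF10 (r = 0.58), out of 4777 genes with a symbol. With region means removed, r fell to 0.42, 0.14 and 0.14 for SST, HPCA and CHGA with NRGN, and was 0.59 for GPRASP2 with GRIA1. Among the 5 genes themselves, r was highest for NRGN with CAMKV, at 0.55, and for CAMK2A with GRIA1, at 0.40. All other pairs were between -0.01 and 0.28. The libraries share regions, animals and depth, so these points are not independent.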

How the data were processed

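Per the study's methods and the labels, the authors trimmed reads with the FASTX-Toolkit, aligned them to MMUL 1.0 (Ensembl) with TopHat2, kept uniquely mapped reads, left out start sites under a minimum TPM, and merged 5′ ends less than 20 nt apart into tag clusters, assigned to genes. The deposited values are RPM, called TPM by the authors, with tags of a cluster scaled to those of the library. No value above 0 is below 1 TPM, and the step that set this limit is not given in the sources used here. In every library at least 87.7% of low values were whole tags within 0.0075 TPM (1 tag was 0.164 to 0.423 TPM), but no table of counts was used here and no count test was run.

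The 6106 genes that reached 1 TPM in 8 or more libraries were tested on the log2(TPM + 1) scale. The model was fitted with limma 3.58.1 in R 4.3.3 (moderated, two-sided) and held region and animal group. For ages and sexes, the means of the animal groups were used. A gene was called at an adjusted p under 0.05. Medians, ranges and figures were made with Python 3.11.15, pandas 2.3.3, SciPy 1.17.1 and Matplotlib 3.10.9. The animal group was a replicate block because all 8 regions were collected from each specimen. Deviations from region means correlated at a mean r of 0.011 within animal groups and -0.002 between them. Scripts were tested on simulated data with normal values and a capped spread. How the tests behave for genes with many libraries at 0 was not checked by this.

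The 5 genes, the gene lists and the tests were chosen with earlier results of these data known. Beside the 5 genes, the rule named the 3 most alike genes of each (all 3 are given for NRGN, the first for the others) and, from each list, genes with the smallest p for CB (up to 4) or the hippocampus (up to 2). The result of 1 such gene is not reported here. Gene symbols were found for 10069 of 13269 identifiers. The alternatives tried were quantile normalization, a pseudocount of 0.25 TPM, all genes without the filter, positions of at least 2 TPM, positions within 500 nt of the start, positions less than 20 nt apart joined, no animal-group term, the number of genes as a covariate, neocortical means, and the omission of each animal group, or of the 20-yr-old females in PFC alone. Chosen after seeing the data were CA1 or DG alone for the hippocampus and leaving out libraries that list fewer than 1000 genes. No sequence was read, since no genome of this build was used here.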

Additional observations from a re-analysis of the deposited data

Results flagged for a closer look

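Of the 5 genes in the 8 regions, 5 libraries stood farther from the other 7 of their region than Dixon's test allows at 95%, on log2(TPM + 1). Its chance rate of about 1 in 20 groups assumes normal values, which groups with many libraries at 0 do not have. NRGN, CAMKV and CAMK2A were at 0 throughout CB, and GRIA1 was at 0 in 7 of 8 OC and 6 of 8 PCC libraries. NRGN had 14.1 TPM in the PC library of 20-yr-old females and 15.3 TPM in the CA1 library of 20-yr-old males, the lowest of their regions. PRKCB was listed at 0 in the OC library of 10-yr-old males, while the other 7 OC libraries had 47.2 TPM or more. GRIA1 had 179 TPM in the PCC library and 116 TPM in the OC library of 4-yr-old females, where 1 other PCC library and no other OC library listed it.

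The age difference of CAMKV ran in opposite directions in PFC and CA1. All 4 PFC libraries of 10 and 20 yr were below all 4 of 1 and 4 yr, and all 4 CA1 libraries of 10 and 20 yr, with 138 ± 27.0 TPM, were above all 4 of 1 and 4 yr, with 57.8 ± 42.1 TPM (SD, n = 4 each). The difference between both age differences was -6.58 on log2(TPM + 1). An exact permutation test over the 8 animal groups gave p = 0.0286 (two-sided), where 0.0286 is the smallest p that 4 against 4 can give, and of 140 such pairs of regions over the 5 genes, 11 had a p below 0.05 and the lowest adjusted p was 0.364. For NRGN, CAMKV and CAMK2A, pairs with CB, where they were at 0, test the age difference of the other region alone. Among the 11 were such pairs, NRGN and CAMKV in PFC and CAMKV in CA1. GRIA1 was also among the 11, with larger differences at the same p, -8.2 for PC against DG and -7.78 for PCC against DG. Its age difference was -2.99 in PC, -2.57 in PCC and 5.21 in DG.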

How the results depend on the processing

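For the 5 genes, 654 of 712 values under the alternatives kept their direction and their side of the threshold. The calls of NRGN and CAMKV in CB kept theirs in all 17 and 16 alternatives that gave a value, with adjusted p from 9.1e-20 to 5.8e-14 and from 0.00015 to 0.00737. CAMKV had no value from positions within 500 nt of the start. The call of PRKCB between CA1 and DG was lost in 1 of 17, that of GRIA1 in 6 of 17, and those of GRIA1 and CAMK2A in the hippocampus in 8 and 13 of 19. The cause of these changes was not tested.

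From positions within 500 nt of the start, 45 genes were called in CB and 136 among the neocortical regions, and the differences were 0.85 for PRKCB in the hippocampus, -0.59 for NRGN between CA1 and DG and 0.19 for GRIA1 by age. With no filter, 755 genes were called in the hippocampus, 1838 between CA1 and DG, 152 among the neocortical regions and 12 by age within regions. Quantile normalization gave 148, 276, 144 and 14 of these, with -0.08 for PRKCB in CB and 0.27 for NRGN between the sexes, and moved the median over all genes to -0.18 in CB, 0.03 in the hippocampus and 0.12 between CA1 and DG. With the number of genes as a covariate, 123, 187 and 35 genes were called in the hippocampus, between CA1 and DG and among the neocortical regions, with 0.27 for GRIA1 in CB and -0.57 for NRGN between CA1 and DG. Against the neocortex, CA1 alone gave 1681 genes and 1.20 for PRKCB, and DG alone gave 27 genes. Without the 6 libraries that list fewer than 1000 genes, 331 genes were called in the hippocampus and 180 among the neocortical regions, with -0.96 for PRKCB in CB, 0.05 for CAMK2A and 0.20 for GRIA1 by age, and 0.47 for NRGN between the sexes. Neocortical means gave 1 gene by age, a pseudocount of 0.25 TPM gave 0 by age within regions, and joined positions gave 32 genes with differing position use in CB and 84 in the hippocampus.

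Leaving out 1 animal group at a time gave 91 to 137 genes in CB, 243 (without the 20-yr-old females) to 514 in the hippocampus, 747 (without the 4-yr-old males; 784 without the 1-yr-old and 777 without the 20-yr-old females) to 1307 between CA1 and DG, 127 (without the 4-yr-old males; 143 without the 10-yr-old males) to 312 among the neocortical regions, 0 to 1 by age, 0 to 15 by age within regions, and 5 to 22 and 19 to 42 in the tests of position use in CB and the hippocampus. The differences ranged from -0.39 to 1.27 for PRKCB in CB, from -0.81 to 0.36 for CAMKV between CA1 and DG, from -0.66 to 0.27 for CAMK2A and -1.13 to 0.12 for GRIA1 by age, and from -0.29 to 1.26 for GRIA1 and -0.28 to 0.14 for NRGN between the sexes.

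Without the replicate block, 119 genes were called in CB, 508 in the hippocampus, 1146 between CA1 and DG and 229 among the neocortical regions, and 12 and 39 in the tests of position use. Of the 5 genes, the block changed only the call of CAMK2A in the hippocampus (adjusted p of 0.0507 without it).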
